A study of Drosophila melanogaster with 8 samples.

Results

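Transcripts of 31 aminoacyl-tRNA synthetase genes were followed in RNA recovered from 2 kinds of testis ribosomes of Drosophila melanogaster. The genes were taken by name from the 12051 genes of the deposited table: an amino acid abbreviation followed by RS, with or without the suffix -m. Of the 31, 17 carry no suffix and are called cytosolic here, and 14 carry the -m of a mitochondrial enzyme, so that both classes rest on the gene names. No name in the table began with Aats-, the older form, and all 31 names are those of the current name table. Testes came from wild-type flies aged 2 to 7 days, kept on cornmeal food, and ribosomes were immunoprecipitated from their extract with antibodies to either eRpL22 or eRpL22-like, paralogous proteins of the large ribosomal subunit. Both groups share genotype, tissue and age, and differ by the antibody. The labels list 4 pulldowns for each antibody, and 7 of these 8 libraries had values: 3 from eRpL22 and 4 from eRpL22-like. eRpL22 replicate 4 was not analysed here. The labels give no input or mock RNA, so RNA held by ribosomes and shared background cannot be told apart. The labels do not say whether replicates are separate collections of flies, and p-values therefore reflect only how much these libraries vary, which can be technical. By its title and design text the series examines the RNAs associated with either kind of ribosome, and the comparisons here put that question to the synthetase transcripts.

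Aminoacyl-tRNA synthetases join each amino acid to its tRNA and so supply the ribosome with its substrates. Cytosolic enzymes serve the cytosolic ribosomes, and a separate, nuclear-encoded set is imported into mitochondria to charge the mitochondrial tRNAs. The enzymes fall into classes I and II, which have unrelated catalytic folds. Mitochondria grow and fuse into large derivatives during spermatid development in flies. The label "cytosolic" is loose for some members: in humans the genes for glycyl- and lysyl-tRNA synthetase each encode the enzymes of both compartments.

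Values are the authors' normalized reads, that is, read counts divided by a scaling factor of each library. They are not divided by transcript length, so a gene is compared with itself between libraries, and sums over genes are given as shares of reads. Values of a pulldown are listed in the order of replicate number. Over the listed genes the libraries held 15971685 to 26346787 reads, and where a gene had none, the upper limit is taken as 3 reads (2.24 to 4.49 normalized, for counting error only). The 10 male germline markers took 1.29% to 1.38% of the reads with eRpL22 and 1.13% to 1.27% with eRpL22-like, without overlap. Of these, 7 were above 3 reads in every library, and vas, bam and aly were at 3 reads or fewer in at least 1. The highest germline markers, Mst87F and dj, had means of 138867 and 109127 normalized reads with eRpL22 and 111023 and 87943 with eRpL22-like. The means of vas, bam and ProtA were also lower with eRpL22-like, and those of aly, can, sa, bol and ProtB were higher. Markers of accessory gland (5 genes) took 0.111% to 0.204%, of muscle (4 genes) 0.00663% to 0.0762%, of cyst cells and hub (4 genes) 0.00306% to 0.0149%, and of neurons (3 genes) 0.000509% to 0.0135%. Of the fat body list only Lsp2 and of the blood cell list only NimC1 were in the table, and each was at 3 reads or fewer in most libraries. eRpL22-like replicates 1 and 3 had 24.3% and 25.01% of all genes at 0, against 11.7% to 18.6% in the other 5 libraries. In bulk RNA of this kind, fewer cells of a type and less RNA per cell cannot be told apart.

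The synthetase genes together took between 0.122% and 0.198% of the reads of a library. Their mean share was 0.158% ± 0.0314 (SD, n = 3) in the eRpL22 pulldown and 0.183% ± 0.0196 (SD, n = 4) in the eRpL22-like pulldown, and the libraries overlapped. The 17 cytosolic genes took 0.0739% ± 0.0112 (SD, n = 3) and 0.0715% ± 0.0190 (SD, n = 4). The 14 mitochondrial genes took 0.0608%, 0.0994% and 0.0906% in eRpL22 replicates 1, 2 and 3 and 0.103%, 0.133%, 0.107% and 0.102% in eRpL22-like replicates 1 to 4. The share of the mitochondrial set was thus higher in every eRpL22-like library than in any eRpL22 library, while that of the cytosolic set overlapped. A single gene, TrpRS-m, accounted for 43.7% to 76.0% of the mitochondrial synthetase reads of a library, and with CysRS-m it accounted for 76.6% to 82.8%. Without TrpRS-m the mitochondrial share was 0.0433% ± 0.0150 (SD, n = 3) and 0.0440% ± 0.0150 (SD, n = 4), and the libraries overlapped. The sums have no test. The summed share of the germline markers, of which Mst87F and dj were the highest, was lower with eRpL22-like and also separated the pulldowns. Its part in the difference was not tested.

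**Figure D1:**
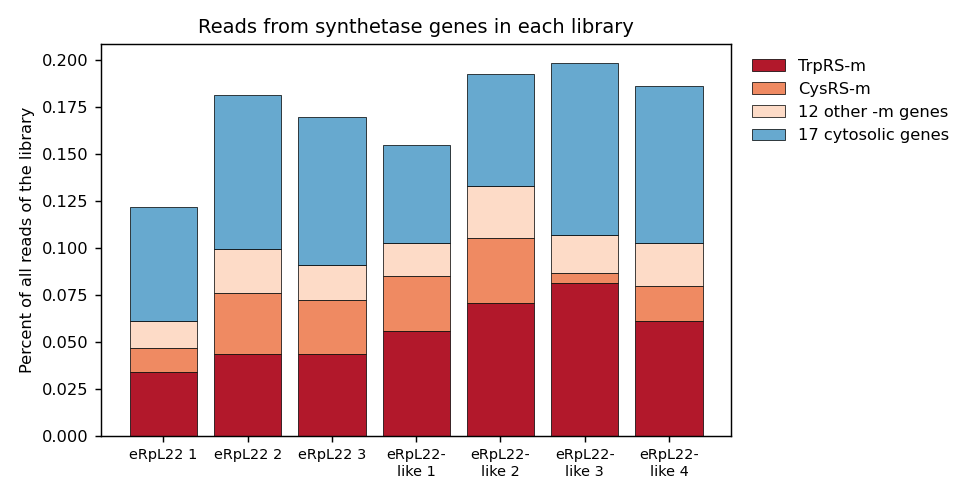
Stacked bars give the percent of all reads of each library (y axis) that came from TrpRS-m, CysRS-m, the 12 other -m genes and the 17 cytosolic genes, for eRpL22 replicates 1 to 3 and eRpL22-like replicates 1 to 4 (x axis). The TrpRS-m segment is larger in all 4 eRpL22-like libraries (0.0557% to 0.0812%) than in the 3 eRpL22 libraries (0.0340% to 0.0434%).

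TrpRS-m (FBgn0036763), which charges the mitochondrial tryptophan tRNA, was the only synthetase transcript of the 30 tested whose libraries separated the pulldowns, as those of 5.14% of all genes did. It stood at 8129, 8745 and 9068 normalized reads in eRpL22 replicates 1, 2 and 3 and 12757, 12892, 17024 and 11470.1 in eRpL22-like replicates 1 to 4. All eRpL22-like libraries lay above all eRpL22 libraries, and within each pulldown the values were close together, except for the higher eRpL22-like replicate 3. Mean normalized reads were 8647 ± 477 (SD, n = 3) in the eRpL22 libraries and 13536 ± 2412 (SD, n = 4) in the eRpL22-like libraries. On the log2 scale the difference was 0.63 (SE 0.27), or 1.55-fold with a 95% interval of 1.059- to 2.27-fold. It was not called: limma, a linear model fitted here to log2(normalized reads + 1) over all genes, gave an unadjusted p of 0.0253 and an adjusted p of 0.945 over 11174 genes. Without eRpL22-like replicate 3 the log2 fold change was 0.52 and the unadjusted p 0.0554, with an adjusted p of 0.88. The authors' deposited table gives TrpRS-m a log2 fold change of 0.65 with p = 0.00702 and an adjusted p of 0.456, from DESeq2. Among the reads of all 31 genes, the TrpRS-m share averaged 25.8% (SD 2.00, n = 3) for the eRpL22 pulldown. For the eRpL22-like pulldown this share averaged 36.6% (SD 3.35, n = 4), and the libraries did not overlap. The share is computed from the same TrpRS-m reads, so it is not separate evidence. The cytosolic counterpart of TrpRS-m, TrpRS (FBgn0010803), stood at 292, 2543 and 2100.3 normalized reads with eRpL22 and 766, 627, 5835 and 1244 with eRpL22-like. These values overlapped, with the lowest in an eRpL22 library and the highest in eRpL22-like replicate 3, and the log2 fold change was 0.24 with an interval of 0.371- to 3.74-fold.

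**Figure D2:**
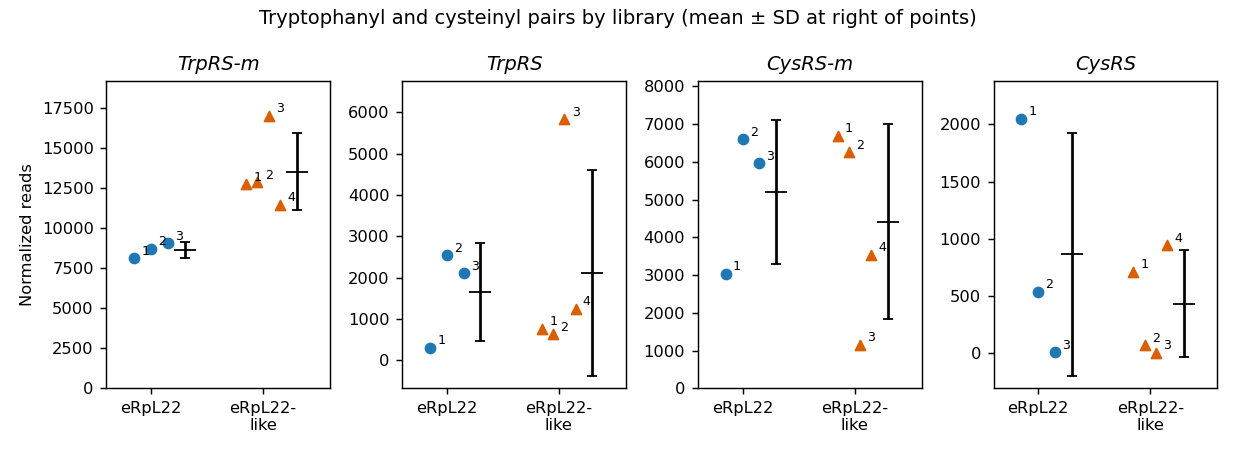
Normalized reads (y axes, a scale for each gene) of TrpRS-m, TrpRS, CysRS-m and CysRS in the 3 eRpL22 libraries (circles) and the 4 eRpL22-like libraries (triangles), each point marked with its replicate number, with mean ± SD beside them. Only for TrpRS-m do the pulldowns separate (8129 to 9068 against 11470 to 17024).

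Of the other mitochondrial synthetases, 5 were above 3 reads in every library, and none of them separated the pulldowns. CysRS-m (FBgn0033900), for cysteine, stood at 3038, 6604 and 5968 normalized reads with eRpL22 and 6697, 6259, 1156 and 3536 with eRpL22-like. Its lowest and highest libraries were both eRpL22-like, and the log2 fold change of -0.45 had an interval of 0.366- to 1.47-fold. eRpL22-like replicate 3 thus held the lowest CysRS-m value and the highest TrpRS-m value. ValRS-m (FBgn0035942), for valine, had 945, 1818 and 1169.9 normalized reads with eRpL22 and 2150.1, 2693, 1320.3 and 1029 with eRpL22-like. AspRS-m (FBgn0051739), for aspartate, had 175, 1108 and 1106 normalized reads with eRpL22 and 822, 958, 2762 and 1079.8 with eRpL22-like. Both had higher means with eRpL22-like, with overlapping libraries, at log2 fold changes of 0.41 (interval 0.522- to 3.37-fold) and 1.05 (interval 0.611- to 6.98-fold). PheRS-m (FBgn0275436), for phenylalanine, had 103, 393 and 543 normalized reads with eRpL22 and 375, 861, 121 and 1074 with eRpL22-like. MetRS-m (FBgn0027083), for methionine, had 379.7, 65.3 and 62.7 normalized reads with eRpL22 and 114, 293, 15.9 and 339 with eRpL22-like. For both genes the libraries within a pulldown differed more than the means of the pulldowns did, and the log2 fold changes were 0.69 and 0.01.

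The remaining 8 mitochondrial synthetases were at 0 in at least 1 library and between 13.1 and 994 normalized reads in their highest library. ProRS-m (FBgn0027082), for proline, had 17.9, 879 and 475 normalized reads with eRpL22 and 0, 65.0, 0 and 56.6 with eRpL22-like. It had the lowest log2 fold change of all members, -4.67 with an SE of 2.81, but eRpL22 replicate 1 was below 2 of the eRpL22-like libraries and the interval ran from 0.000753- to 2.06-fold. LeuRS-m (FBgn0027085), for leucine, had 0, 0 and 523 normalized reads with eRpL22 and 257, 71.7, 0 and 154 with eRpL22-like. Its fitted log2 fold change was 2.36 although its mean was higher with eRpL22 (174 against 121), with 2 of the 3 eRpL22 and 1 of the 4 eRpL22-like libraries at 0. SerRS-m (FBgn0021750), for serine, had 0, 419 and 19.0 normalized reads with eRpL22 and 15.5, 23.1, 0 and 367 with eRpL22-like. TyrRS-m (FBgn0035064), for tyrosine, had 569.6, 1.02 and 0 normalized reads with eRpL22 and 31.0, 0, 0 and 168 with eRpL22-like. In both, 1 library of each pulldown stood far above the others. AlaRS-m (FBgn0028962), for alanine, had 994, 0 and 0 normalized reads with eRpL22 and 0, 76.2, 0 and 0 with eRpL22-like. ArgRS-m (FBgn0037526), for arginine, had 178, 0 and 0 normalized reads with eRpL22 and 0, 0, 0 and 20.7 with eRpL22-like. These 2 were thus seen in 1 library of each pulldown only, eRpL22 replicate 1 being the higher. AsnRS-m (FBgn0034177), for asparagine, was seen in eRpL22-like replicate 1 alone, at 285 normalized reads. Its eRpL22-like mean of 71.3 was at least 21.5-fold higher than the eRpL22 floor of 3 reads per library, but it rests on that library, and the other 3 eRpL22-like libraries were also at 0. IleRS-m (FBgn0036569), for isoleucine, was seen only in eRpL22-like replicate 3, at 13.1. Its mean of 1.87 over the 7 libraries was below the minimum of 10 for testing.

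**Figure D3:**
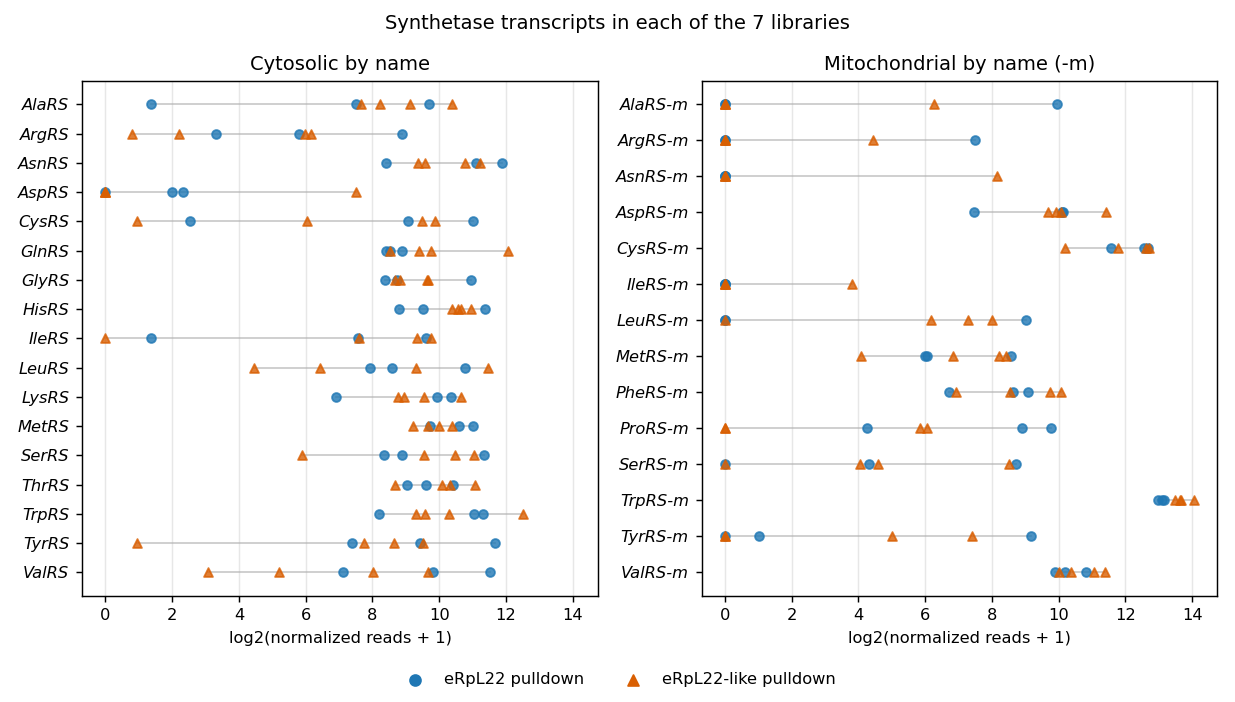
Each row is a synthetase gene, and each point a library, on a log2(normalized reads + 1) axis, for 17 cytosolic genes (left) and 14 mitochondrial genes (right); circles are the 3 eRpL22 and triangles the 4 eRpL22-like libraries, and grey lines span lowest to highest. The scale is not per transcript length, so positions should be compared within a row; TrpRS-m spans 8129 to 17024 normalized reads, whereas 8 mitochondrial and 2 cytosolic genes reach 0 in some libraries.

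Among the cytosolic synthetases, 9 had at least 57.9 normalized reads in every library, and none of these separated the pulldowns. MetRS (FBgn0034401), for methionine, had 1556, 849 and 2069 normalized reads with eRpL22 and 1326, 817, 599.9 and 1012 with eRpL22-like. HisRS (FBgn0027087), for histidine, had 728, 445 and 2675 normalized reads with eRpL22 and 1599, 1341, 1509 and 1999.7 with eRpL22-like. The eRpL22-like libraries of HisRS lay close together, inside the wider range of the eRpL22 libraries. ThrRS (FBgn0027081), for threonine, had 776, 529 and 1377 normalized reads with eRpL22 and 1096, 1287, 412 and 2136 with eRpL22-like. GlyRS (FBgn0027088), for glycine, had 333, 422 and 1965 normalized reads with eRpL22 and 812, 796, 448 and 412 with eRpL22-like. For GlyRS, eRpL22 replicate 3 stood above all other libraries, which ranged from 333 to 812. AsnRS (FBgn0086443), for asparagine, had 3741, 2216 and 340.3 normalized reads with eRpL22 and 1737, 762, 2384 and 662 with eRpL22-like. LysRS (FBgn0027084), for lysine, had 119.6, 969 and 1297 normalized reads with eRpL22 and 488, 436, 1623 and 742 with eRpL22-like. For AsnRS and LysRS the lowest library was an eRpL22 one, replicate 3 and replicate 1. SerRS (FBgn0031497), for serine, had 324, 2590.1 and 472 normalized reads with eRpL22 and 1432, 2115, 57.9 and 752 with eRpL22-like. GlnRS (FBgn0027090), for glutamine, had 475, 366 and 336 normalized reads with eRpL22 and 677, 369.6, 4293 and 859 with eRpL22-like. GlnRS was high in eRpL22-like replicate 3 alone, where TrpRS was also highest. Its log2 fold change of 1.33 (SE 0.99) was 0.62 without that library. The other log2 fold changes of these 9 genes, TrpRS included, ran from -0.63 for MetRS to 0.74 for HisRS.

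The other 8 cytosolic synthetases varied by over 100-fold between libraries or included a library at 0. ValRS (FBgn0027079), for valine, had 139, 2936 and 903 normalized reads with eRpL22 and 35.5, 258, 7.47 and 806 with eRpL22-like. TyrRS (FBgn0027080), for tyrosine, had 3280.2, 168 and 690.1 normalized reads with eRpL22 and 216, 404, 0.934 and 729 with eRpL22-like. These had the lowest fitted log2 fold changes of the cytosolic set, -3.003 (SE 1.69) and -2.78 (SE 1.73), with overlapping libraries and unadjusted limma p-values of 0.0848 and 0.117. In both, eRpL22-like replicate 3 was the lowest library, and the log2 fold changes without it were -1.87 and -0.86. AlaRS (FBgn0027094), for alanine, had 179, 824 and 1.59 normalized reads with eRpL22 and 301, 558, 1332 and 203 with eRpL22-like. Its log2 fold change of 2.67 (SE 1.75) was the highest of all members and rested on eRpL22 replicate 3, without which it was 0.26. LeuRS (FBgn0284253), for leucine, had 383, 245 and 1768 normalized reads with eRpL22 and 20.9, 85.1, 633 and 2799 with eRpL22-like. Its fitted log2 fold change of -1.19 and its means, which were higher with eRpL22-like (884 against 798), point in opposite directions. CysRS (FBgn0027091), for cysteine, had 2051, 533 and 4.76 normalized reads with eRpL22 and 711, 64.2, 0.934 and 942 with eRpL22-like. IleRS (FBgn0027086), for isoleucine, had 187, 785 and 1.59 normalized reads with eRpL22 and 651, 862, 0 and 191 with eRpL22-like. Replicate 3 of each pulldown was the low library for both genes, while the highest reached 2051 and 862 normalized reads. ArgRS (FBgn0027093), for arginine, had 8.97, 55.1 and 475 normalized reads with eRpL22 and 3.64, 0.747, 71.0 and 62.8 with eRpL22-like. AspRS (FBgn0002069), for aspartate, had 2.99, 0 and 3.97 normalized reads with eRpL22 and 0, 0, 0 and 183 with eRpL22-like. AspRS was above 5 reads in 1 library only, eRpL22-like replicate 4, on which its log2 fold change of 0.44 rested (-1.44 without it).

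Between the pulldowns, 0 of the 30 synthetase transcripts tested were called by limma with Benjamini-Hochberg adjustment over all 11174 genes (background 0.0%). An unadjusted p under 0.05 was reached by 1 of the 30 (3.33%), TrpRS-m, where 4.11% of all genes did so. Library values without overlap were also found for 1 of the 30 (3.33%), again TrpRS-m, against 5.14% of all genes. Both shares rest on 1 gene and are near the background. edgeR on the recovered whole reads called 0 of 26 members tested, with 1 at an unadjusted p under 0.05 (all genes 0.0% and 3.96%). DESeq2 called 0 of 24, with 2 at an unadjusted p under 0.05, TrpRS-m and GlnRS (all genes 1.36% and 9.52%). By the p-values of the authors' deposited table, 0 of the 31 were called and the same 2 had a p under 0.05, where 0.174% and 5.53% of the 12051 genes did. The members split evenly, with 15 log2 fold changes above 0 (50.0%, against 48.8% of all genes) and 15 below, and a median of -0.02 beside -0.03 over all genes tested. The median was -0.15 for the 17 cytosolic genes, of which 8 were above 0 and 9 below. It was 0.01 for the 13 mitochondrial genes tested, of which 7 were above 0 and 6 below. Setting AsnRS-m to its bound could not move this median, since its fitted log2 fold change of 2.04 already lay above it. Class I enzymes had 7 above 0 and 9 below with a median of -0.37, and class II enzymes 8 and 6 with a median of 0.38. For 0 of the 30 did the whole 95% interval stay inside 2-fold in both directions, against 5.31% of all genes, so that a 2-fold difference lay inside the interval of every member tested, in 1 direction or both. The absence of calls therefore does not show that the pulldowns held equal amounts.

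**Figure D4:**
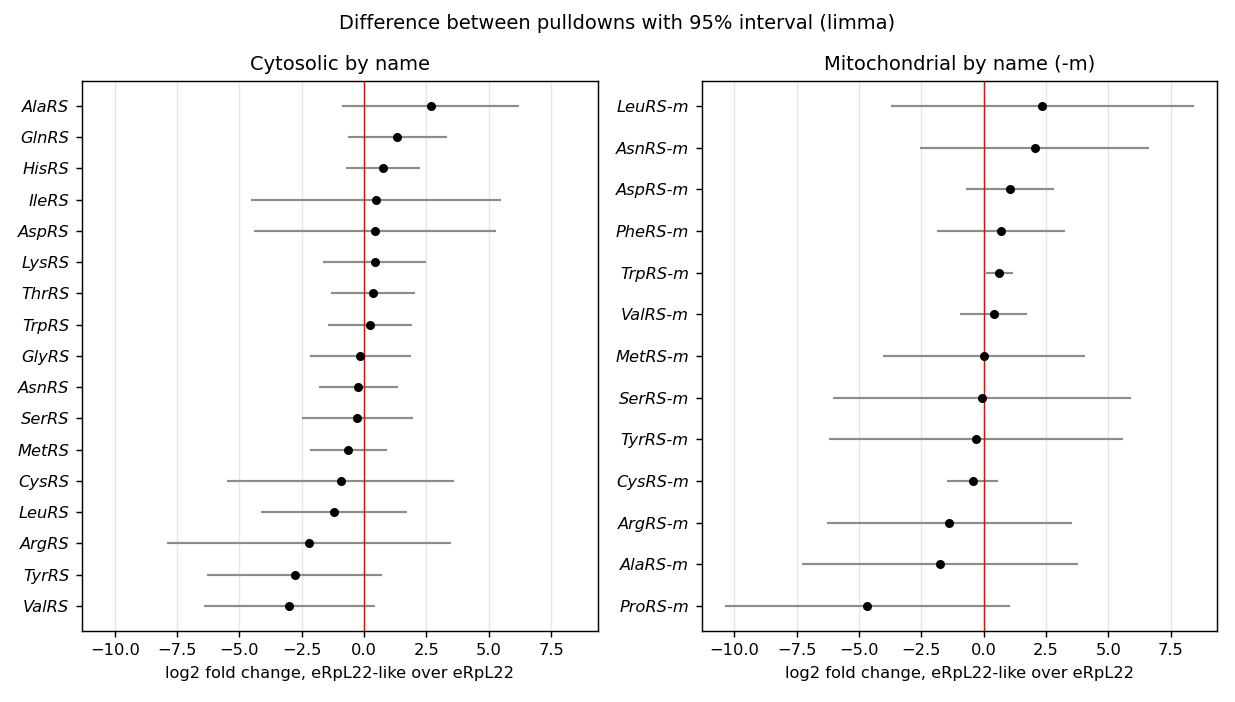
Points give the limma estimate, eRpL22-like relative to eRpL22 on the log2 scale (x axis), and bars its 95% interval for 17 cytosolic (left) and 13 mitochondrial (right) synthetase genes, sorted by value; the red line marks no difference. The interval of TrpRS-m, 0.08 to 1.18, alone excludes 0, before adjustment over all genes.

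For 12 amino acids the table held both a cytosolic and a mitochondrial gene, and the ratio of the pair within a library was followed across libraries, on the scale of log2(normalized reads + 1). In 8 of the 12 pairs a gene was at 0 in some library, and there the added 1 sets the size of the ratio, so it is read for its sign only. Glutamine, glycine, histidine, lysine and threonine had a cytosolic gene only among the members, and proline and phenylalanine a mitochondrial one only. The log2 ratio of TrpRS-m over TrpRS had the smallest range of the 4 pairs with no gene at 0: 4.80, 1.78 and 2.11 in eRpL22 replicates 1 to 3 and 4.06, 4.36, 1.54 and 3.20 in eRpL22-like replicates 1 to 4. For MetRS-m over MetRS it was -2.03, -3.68 and -5.02, and -3.53, -1.48, -5.15 and -1.57. In the cysteine pair it was 0.57, 3.63 and 10.02, and 3.23, 6.58, 9.22 and 1.91, and it varied more within each pulldown than between their means (4.74 ± 4.82 against 5.24 ± 3.31, SD, n = 3 and 4). CysRS had 6 reads in eRpL22 replicate 3 (ratio 10.02) and 1 read in eRpL22-like replicate 3 (ratio 9.22), so the added 1 bears on these too. The difference between the highest and the lowest library was 3.25 for tryptophan, 3.68 for methionine, 9.45 for cysteine and 7.98 for valine, the 4 pairs with no gene at 0. In 3 pairs (aspartate, cysteine and tryptophan) the mitochondrial gene had more reads than the cytosolic one in all 7 libraries, and in 4 (asparagine, methionine, serine and tyrosine) fewer in all 7. For tyrosine the order in eRpL22-like replicate 3 rests on 1 read of TyrRS against 0 of TyrRS-m, both within the limit of 3 reads. In the other 5 pairs the order changed between libraries. These are orders of reads, not of molecules, since transcript lengths were not used here. The ratios of 0 of the 12 pairs separated the pulldowns. Of the 11 pairs with both members tested, the log2 fold changes of the members had the same sign in 6 and opposite signs in 5.

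The spread between libraries, measured as the SD of log2(normalized reads + 1) over the 7 libraries, was wide for most synthetase transcripts. This holds for genes at large too: the median SD was 2.16 for the 30 members tested and 2.39 for all genes tested. TrpRS-m had the smallest SD, 0.38, near the median of 0.39 for the 770 genes whose mean was 5000 normalized reads or more. Of the 10 members with means of 1000 to under 5000, from 0.57 for ValRS-m to 1.89 for SerRS, 8 lay above the median of 0.81 for the 2713 genes of that band. In the band of 100 to under 1000, 10 of 15 members lay above the median of 2.89 for 5090 genes, with LeuRS-m (4.16), AlaRS-m (4.10) and IleRS (4.07) the widest. In the band of 10 to under 100, 2 of 4 members lay above the median of 2.95 for 2601 genes. At least 1 library at 0 was found for 10 of the 31 members, 8 mitochondrial and 2 cytosolic, and in 36.6% of all genes tested. eRpL22-like replicate 3 held 9 of the 31 members at 0, against 3 to 6 in the other 6 libraries, and it was also the library with the most genes at 0 overall. The same library held the highest value of 7 members (AlaRS, AspRS-m, GlnRS, IleRS-m, LysRS, TrpRS and TrpRS-m). eRpL22 replicate 1, the library with the fewest reads, likewise held the highest value of 7 (AlaRS-m, ArgRS-m, AsnRS, CysRS, MetRS-m, TyrRS and TyrRS-m). With each of the 7 libraries left out in turn, 14 of the 30 log2 fold changes kept their sign throughout, 15 changed it, and that of AsnRS-m was 0 without the library that held all its reads.

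**Figure D5:**
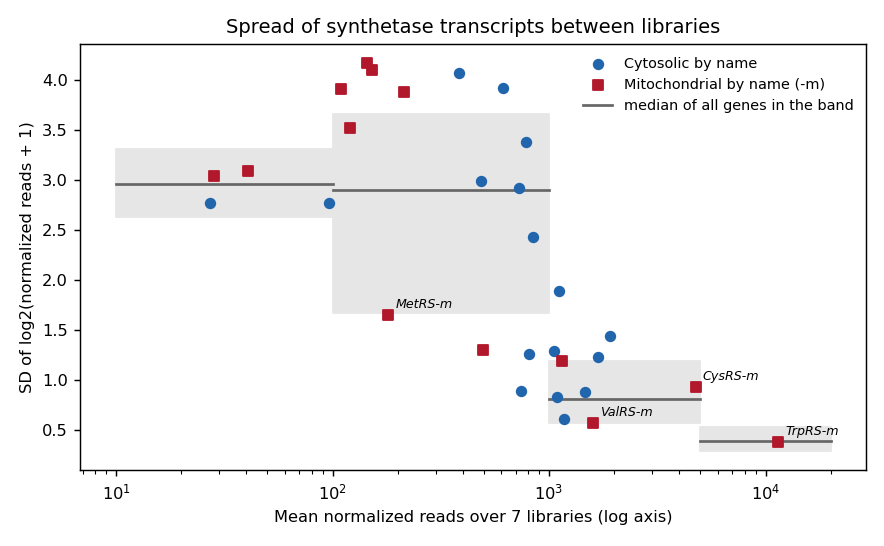
SD of log2(normalized reads + 1) over the 7 libraries (y axis) against the mean normalized reads (x axis, log scale) for 17 cytosolic (circles) and 13 mitochondrial (squares) synthetase genes; grey lines and boxes are the median and the interquartile range of all genes in 4 bands of mean. TrpRS-m, at 0.38, sits at the line of its band, and CysRS-m, at 0.93, above that of its own.

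Some members overlap another gene, and strand was not stated for the counting, so their reads may be shared. By the spans of the RefSeq table, 15 of the 31 members overlap another gene, 11 of them a gene of the deposited table, and TrpRS-m overlaps none. TyrRS-m overlaps CG3594, which had 552, 0 and 0 normalized reads with eRpL22 and 0, 249, 0 and 272 with eRpL22-like. CG3594 was thus high in eRpL22 replicate 1 and eRpL22-like replicate 4, as TyrRS-m was, and differed from it in eRpL22-like replicates 1 and 2. AsnRS-m overlaps NiPp1, which had 589 to 1780 normalized reads in all 7 libraries, whereas AsnRS-m was at 0 in 6 of them. GlnRS overlaps CG11858, which was at 1678 in eRpL22-like replicate 3, within its range of 979.6 to 2766, whereas GlnRS stood alone there. CysRS-m overlaps CG13016, which was at most 142. Whether shared reads enter the other overlapping members (AlaRS-m, ArgRS-m, AspRS, AspRS-m, HisRS, IleRS-m and SerRS) was not tested.

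Other genes of tRNA charging and of its use in translation had 0 of 26 called by limma. At an unadjusted limma p under 0.05 there was 1 (3.85%, against 4.11% of all genes), eEF1delta. With edgeR 0 of 23 and with DESeq2 1 of 22, alpha-PheRS, had an unadjusted p under 0.05, where 3.96% and 9.52% of all genes did. Of the 26, 10 log2 fold changes were above 0 (38.5%, against 48.8% of all genes) and 16 below, with a median of -0.11. The 4 synthetase and synthetase-related genes outside the naming rule varied widely. GluProRS, which charges both glutamate and proline tRNAs, had 1184, 464 and 11.1 normalized reads with eRpL22 and 5328, 106, 5126 and 219 with eRpL22-like and was highest in eRpL22-like replicates 1 and 3. alpha-PheRS and beta-PheRS encode the subunits of the cytosolic phenylalanyl enzyme. alpha-PheRS had 11.96, 1816 and 316 normalized reads with eRpL22 and 196, 113, 70.1 and 25.3 with eRpL22-like. beta-PheRS had 2.99, 580.2 and 733 normalized reads with eRpL22 and 1.82, 886, 36.4 and 1085 with eRpL22-like. Their high libraries differed: eRpL22-like replicates 2 and 4 were the highest for beta-PheRS and not for alpha-PheRS. Slimp, a mitochondrial protein related to seryl-tRNA synthetase, ranged from 0 to 418. Of the scaffold proteins of the multisynthetase complex, AIMP1 had a mean of 3184 ± 1909.6 (SD, n = 3) in the eRpL22 libraries and 1484 ± 1181 (SD, n = 4) in the eRpL22-like libraries, a log2 fold change of -1.44 with an unadjusted limma p of 0.0618, and AIMP2 and AIMP3 had log2 fold changes of 0.55 and -1.95. GatA and GatB, subunits of the amidotransferase that makes glutaminyl-tRNA in mitochondria, ranged from 2.80 to 1008 and from 0 to 424.

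Elongation factors carry charged tRNA to the ribosome and move it through. Of the cytosolic ones, eEF1alpha1, eEF1beta, eEF1gamma and eEF1delta, each with a mean above 5000 normalized reads, had SDs of 0.57 to 0.81 on the log2 scale, above the median of 0.39 for genes of that band. eEF1delta, a subunit of the cytosolic nucleotide exchange complex, had 2239.6, 4339 and 5743 normalized reads with eRpL22 and 8405, 7059.6, 5175 and 7311 with eRpL22-like. Its eRpL22-like mean was 1.70 times that of eRpL22, with overlapping libraries, a log2 fold change of 0.85 (SE 0.39) and a limma p of 0.0366 unadjusted and 0.945 adjusted. The unadjusted p of eEF1delta was 0.0603 with edgeR and 0.0508 with DESeq2. Of the 5 cytosolic factors 4 had log2 fold changes above 0, from 0.06 for eEF1alpha1, which delivers aminoacyl-tRNA, to 1.15 for eEF1alpha2, and eEF1beta was at -0.10. eEF1alpha1 had 61183, 34889.5 and 14872 normalized reads with eRpL22 and 65174, 40492, 21845 and 20807 with eRpL22-like, with overlapping libraries. The eEF1alpha2 value rested on eRpL22-like replicate 1, at 5934 against 94.8 to 566 elsewhere. The 4 mitochondrial factors were all below 0, from -1.60 for mEFG1, a translocation factor, to -0.11 for mEFTs, the exchange factor of mitochondrial Tu. Each of their 95% intervals included no change, that of mEFG1 running from 0.0115- to 9.49-fold. Both lists are short, and 48.8% of all genes tested were above 0. mEFTs had 11419, 11699 and 14380.2 normalized reads with eRpL22 and 10139, 10594, 11644 and 13894 with eRpL22-like. It was thus within 1.42-fold over all libraries, without the separation seen for TrpRS-m, and its 95% interval was 0.638- to 1.34-fold. mEFTu1 and mEFTu2, which deliver tRNA to the mitochondrial ribosome, had log2 fold changes of -0.25 and -0.26. The 8 other tRNA enzymes, 3 above 0 and 5 below, ran from -1.41 for RtcB, the tRNA ligase, to 2.44 for CG18643 (Dtd in the current name table).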

How the data were processed

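RNA was extracted from eRpL22 and eRpL22-like pulldowns of testis extract and sequenced as single reads of 50 bases, per the labels. DESeq2, STAR, cutadapt and Trim Galore are listed in the submitters' processing notes. What genome build and read counter were used, and whether strand was kept, is not given in the sources used here. The authors deposited 1 table of 12051 genes with a normalized signal per library (read counts divided by a size factor) and DESeq2's log2 fold change, test score (the Wald statistic), p-value and adjusted p-value. No other column holds values of a sample (0 such columns). The deposited signal came out as whole multiples of 1 read for 100% of values, with a tolerance of 1e-06, which gave recovered reads. Spreadsheet dates in place of 4 gene names were restored.

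Genes averaging 10 or more normalized reads were fitted with limma 3.58.1 (trend, two-sided) in R 4.3.3 on log2(normalized reads + 1). Benjamini-Hochberg adjustment was over 11174 genes, with a threshold of 0.05. On this scale the fitted change can be smaller or larger than that of the count tests. For AlaRS-m, at 0 in 5 libraries, it was -1.75 with limma and -4.12 with DESeq2. For AlaRS, with 1 eRpL22 library near 0, it was 2.67 with limma and 0.84 with edgeR and DESeq2. edgeR 4.0.16 (quasi-likelihood) and DESeq2 1.42.0 on the recovered reads, other normalizations, pseudocounts and filters, and each library left out were alternatives. Sums and figures used Python 3.11.15, numpy 2.4.6, pandas 2.3.3 and matplotlib 3.10.9. limma and edgeR were also run on simulated reads, with changes placed only in genes with high means. A pass was required only where the spread was set low, so it does not cover members that vary widely.

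A comparison of levels between genes per coding length was planned, but lengths were not used here, and reads without division by length were compared within genes, within pairs or as shares. Sequences of these genes were not used here. Members overlapping other genes were found in the RefSeq gene table (Release 6), used for names and neighbours only. All members were to be named, with values in every library for those of an amino acid pair, for the 3 largest changes in each direction and for those with an unadjusted p under 0.05 or without overlap; the values of all members are given. The members and lists were chosen with earlier results of these data known. Same-numbered libraries did not deviate together (correlations of 0.0071, 0.0195 and 0.0099 over genes), so replicate numbers were not used as pairs.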

Additional observations from a re-analysis of the deposited data

Results flagged for a closer look

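Of 80 sets of 4 eRpL22-like values checked, 17 had a highest library far from the other 3. Chance flags about 1 in 20 groups of normally spread values, which reads are not: among all genes tested the same rule marked 25.6%, beside 24.6% (14 of 57) of the synthetase and pathway genes. For 6 of these 14 the other 3 libraries were at 0, which meets the rule at any level. Among the mitochondrial synthetases, AspRS-m reached 2762 normalized reads in eRpL22-like replicate 3, with the next library at 1079.8. SerRS-m reached 367 in replicate 4, with the next at 23.1. The other 3 eRpL22-like libraries were at 0 for AlaRS-m beside 76.2 in replicate 2, for ArgRS-m beside 20.7 in replicate 4, for AsnRS-m beside 285 in replicate 1 and for IleRS-m beside 13.1 in replicate 3. Among the cytosolic synthetases, GlnRS reached 4293 in replicate 3 with the next library at 859. TrpRS reached 5835 in the same library with the next at 1244. AspRS reached 183 in replicate 4, with the other 3 at 0.

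The share of reads from the mitochondrial set was 0.133% in eRpL22-like replicate 2, with the next library at 0.107%. The log2 ratio of IleRS-m over IleRS, with 1 added to both, was 3.82 in replicate 3, where IleRS was at 0, and -7.59 in the next library, where IleRS-m was at 0, so that both values are set by the added 1. That of SerRS-m over SerRS was -1.03 in replicate 4 and -5.88 in the next library, where SerRS-m was at 0. Of the other pathway genes, eEF1alpha2 reached 5934 in replicate 1 with the next at 489, and eEF1gamma 17136 in replicate 1 with the next at 9141. GatB reached 424 in replicate 3 with the others at 0, and Mt2 686 in replicate 3 with the next at 0.911. Archease reached 38.3 in replicate 4 with the next at 5.97.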

How the results depend on the processing

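Under the 9 other settings and with each of the 7 libraries left out, 0 synthetase genes were called by limma, edgeR or DESeq2. The count with an unadjusted p under 0.05 was 2 with DESeq2 and ran from 0 to 2 with a library left out. It was 0 without eRpL22-like replicate 3 and 2 without eRpL22 replicate 3, where limma gave HisRS an unadjusted p of 0.0375 beside TrpRS-m. TrpRS-m was at 0.73 with library totals, 0.71 with quantile normalization and 0.52 to 0.71 with a library left out. The medians moved by less than the spread between libraries under every setting run for them. That spread (SD 0.54 cytosolic and 0.95 mitochondrial) was wider than the medians themselves, so it does not show that their signs hold. The cytosolic median was above 0 with DESeq2 (0.049), with the replicate block (0.013) and without eRpL22 replicate 2 (0.030) or eRpL22-like replicate 3 (0.022) or 4 (0.013). It was -0.56 without eRpL22 replicate 1. The mean shares also moved by less than their spread between libraries, but most of their settings could hardly move them. Library totals cannot change a share within a library, and leaving out 1 of 7 libraries moves a mean little. Of the 30 log2 fold changes, 12 kept their sign under all settings and with every library left out, 8 cytosolic and 4 mitochondrial, and 25 spanned over 1 on the log2 scale with a library left out. The cause was not tested where a sign changed.

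The signs of 2 genes changed with the test: LeuRS was at 0.14 with edgeR and 0.15 with DESeq2, and LeuRS-m at -0.55 and -0.53. SerRS-m was at 0.020 with a pseudocount of 0.5. With the replicate block, which keeps the 3 numbered pairs of libraries, 0 were called and 1 had an unadjusted p under 0.05, and AspRS was at -1.44, AsnRS at 0.053, GlyRS at 0.022, MetRS-m at -0.50 and TrpRS-m at 0.71. Over all genes, 293 had an unadjusted p under 0.05 with the replicate block, against 379 for the same 6 libraries without it. With a library left out, the log2 fold change ran from -3.41 to 1.57 for AlaRS-m, -2.63 to 1.11 for ArgRS-m, -0.79 to 0.10 for CysRS-m, -0.50 to 0.95 for MetRS-m, -0.029 to 1.32 for PheRS-m, -2.23 to 2.13 for SerRS-m and -1.99 to 2.59 for TyrRS-m. Among cytosolic genes it ran from -1.26 to 0.47 for AsnRS, -1.44 to 1.07 for AspRS, -3.45 to 0.93 for CysRS, -0.63 to 0.65 for GlyRS, -1.91 to 2.72 for IleRS, -0.65 to 1.06 for LysRS, -0.88 to 0.84 for SerRS and -0.76 to 0.80 for TrpRS. A value of 0 allows up to 3 reads, for counting error only. AlaRS-m, for example, had 665 reads in eRpL22 replicate 1, the library with the fewest reads, and 0 in eRpL22 replicates 2 and 3. Why members were at or near 0 in some libraries was not tested.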
